A study of Mus musculus with 6 samples.

Results

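Trappc12, Rab25, Spg21 and Kpna2 encode proteins that move membrane cargo between compartments or carry proteins into the nucleus. They were followed in mouse liver after daily gavage with an aqueous extract of jujube (Ziziphus jujuba) or with water. Each gene was found by its symbol in a table of 122 genes that the authors deposited, and the feature number beside the symbol led to 1 of 45220 features on the array. All 4 genes asked for were found, each with a single feature. That table lists genes the authors called deregulated between these same arrays, so the 4 genes were selected on their intensities in extract mice relative to water controls. Their differences are therefore given as a description, and no test of them is reported.

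Liver RNA came from 6 male mice, 8 weeks old at day 0 and kept on standard chow. The extract group received 500 µl of extract solution at 6 mg/mL by gavage each day for 20 days (n = 3 mice). The control group underwent the same gavage with water (n = 3 mice). The sources used here do not give the strain. RNA of 1 mouse, labelled with the dye Cy3, was hybridised to each 1-colour Agilent array, so n counts mice, and precision is limited by having 3 arrays in a group.

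On each array, 22.7% to 26.8% of features read above 100 in intensity, and the 9434 features that did so on all 6 arrays are called bright. All 4 genes were bright. The array of extract mouse 1 stood apart: over bright features it correlated with the others at 0.955 to 0.959, and 99 bright features on it fell short of the other arrays' median by 2 log2 units or more, where each other array had 0 to 4. Of 12 hepatocyte markers, Cyp4a12a and Vnn1 are named in the deposited table. Intensities of Vnn1 were 283, 1862 and 891 in extract mice 1, 2 and 3 and 669, 846 and 1236 in control mice 1, 2 and 3. Intensities of Cyp4a12a were 354, 422 and 368 in the extract group and 197, 190 and 237 in controls. Of 5 markers of sinusoidal endothelium Fcgr2b is named, with 44, 653 and 821 in extract livers and 139, 214 and 807 in controls. Of the markers listed for cholangiocytes and other epithelium (13), Kupffer cells, stellate cells and lymphocytes (5 each) and erythroid cells (3), 0 are named. Outside these lists, Hbb-y is named under oxygen transport (1883, 2810 and 2770 in extract mice, 924, 938 and 2140 in controls). Of immunoglobulin genes, Igkv14-100 had 825, 1055 and 1185 against 652, 540 and 590, and Ighv1-62-3 85, 436 and 346 against 222, 230 and 280. Dsp, under cell-cell junctions, had 10332, 15968 and 13658 against 5373, 4709 and 9860. The tissue label was not checked further.

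Secretory and membrane proteins leave the endoplasmic reticulum in coated vesicles, which tethering complexes capture and small GTPases of the Rab family steer to their target membrane. Hepatocytes rely on this traffic to secrete plasma proteins and to sort cargo to the sinusoidal and the bile canalicular surface. Proteins bound for the nucleus are held by an importin alpha, carried through the nuclear pore with importin beta, and released there by the GTPase Ran. Trappc12 encodes a subunit of the TRAPPIII tethering complex, which acts in traffic from the endoplasmic reticulum to the Golgi and in autophagy, as known from human cells. Rab25 is an epithelial Rab of the Rab11 subfamily, at home on apical recycling endosomes. Spg21 encodes maspardin, a protein of endosomal and trans-Golgi vesicles whose loss in humans causes Mast syndrome, a spastic paraplegia. Kpna2 is an importin alpha and is abundant in proliferating cells.

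Sequences around the transcription starts are shown because the 4 genes all had higher deposited means in the extract group, to set out what their starts share. Each runs from 250 bases before to 50 bases after a RefSeq start (GRCm38.p6), 5′ to 3′ on the strand of the gene. Capitals mark matches to 5 motifs on either strand: the CCAAT box (CCAAT), the cell cycle homology region or CHR (TTTGAA or TTTAAA), the core of ETS factor sites (CCGGAA), the cyclic AMP response element or CRE (TGACGTCA) and the GC box (GGGCGG). No match overlaps another. The motifs were chosen with these sequences in view.
Trappc12, chr12:28750351-28750650, minus strand: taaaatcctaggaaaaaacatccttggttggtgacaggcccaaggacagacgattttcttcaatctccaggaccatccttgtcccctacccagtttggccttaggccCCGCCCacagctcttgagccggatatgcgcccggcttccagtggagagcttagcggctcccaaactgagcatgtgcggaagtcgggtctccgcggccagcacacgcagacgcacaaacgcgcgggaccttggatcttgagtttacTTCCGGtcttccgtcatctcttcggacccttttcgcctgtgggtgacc
Rab25, chr3:88548230-88548529, minus strand: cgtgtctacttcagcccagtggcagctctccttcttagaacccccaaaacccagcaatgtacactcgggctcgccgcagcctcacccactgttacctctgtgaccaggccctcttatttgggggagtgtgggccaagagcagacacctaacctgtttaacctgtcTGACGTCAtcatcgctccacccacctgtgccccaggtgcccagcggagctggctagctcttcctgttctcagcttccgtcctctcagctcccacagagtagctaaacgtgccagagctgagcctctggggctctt
Spg21, chr9:65460687-65460986, plus strand: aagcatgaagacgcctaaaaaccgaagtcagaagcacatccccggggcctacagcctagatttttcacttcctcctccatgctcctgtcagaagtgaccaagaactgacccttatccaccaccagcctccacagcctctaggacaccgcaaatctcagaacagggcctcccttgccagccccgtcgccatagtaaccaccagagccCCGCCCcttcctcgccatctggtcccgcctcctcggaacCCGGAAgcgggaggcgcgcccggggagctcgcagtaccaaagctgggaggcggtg
Kpna2, chr11:106999476-106999775, minus strand: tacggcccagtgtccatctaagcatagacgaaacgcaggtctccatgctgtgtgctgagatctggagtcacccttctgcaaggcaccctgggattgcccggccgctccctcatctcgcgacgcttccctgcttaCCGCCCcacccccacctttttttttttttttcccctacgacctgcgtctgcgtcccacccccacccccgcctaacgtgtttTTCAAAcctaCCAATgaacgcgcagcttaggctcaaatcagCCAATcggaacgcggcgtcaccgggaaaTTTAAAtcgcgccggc

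The Trappc12 and Spg21 starts share an ETS core close to the first transcribed base, beginning 3 bases into the transcript of Trappc12 and 5 bases before that of Spg21. Both also hold 1 GC box, as does Kpna2. An ETS core occurs at any position in 14.9% and a GC box in 35.7% of 32851 RefSeq promoter windows of the same length. How many windows hold an ETS core this close to the start was not counted. Distances are from the 1 start used, and RefSeq lists 13 transcripts of Trappc12 and 3 of Spg21. Rab25 has neither an ETS core nor a GC box. It carries a complete CRE that begins 85 bases before its start, a motif found in 1.79% of windows. Kpna2 alone of the 4 has CCAAT boxes and CHR matches, 2 of each. The CCAAT boxes begin 25 bases before its start and 7 bases into the transcript. The CHR matches begin 35 bases before the start and 35 bases into the transcript. At least 1 CCAAT box is held by 37.4% of all windows and at least 1 CHR by 27.6%. CHR elements and CCAAT boxes are known from genes expressed late in the cell cycle. These matches describe the letters only, and no binding was measured here.

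In intensities as deposited, all 4 genes had higher means in extract livers than in water controls, by 2.66-fold for Trappc12, 2.01-fold for Spg21, 1.79-fold for Kpna2 and 1.72-fold for Rab25 (ratio of group means, n = 3 each), though for Spg21, Kpna2 and Rab25 the sign turned under scaling by the 75th percentile of all features. For Trappc12, Rab25 and Kpna2 every extract mouse lay above every control, and for Spg21 the groups overlapped. The same 3 of 4 genes were separated after quantile normalization between arrays, where each array is given the same distribution of values. Because the genes were listed from this contrast, nothing is read from those counts. Among bright features 14.1% were separated upward without scaling and 9.54% after quantile normalization, and among all features 12.0% and 4.33%. Of the 122 listed genes 68.0% were, after normalization. In the bulk tissue measured, more cells of a type and more RNA per cell cannot be told apart.

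**Figure D1:**
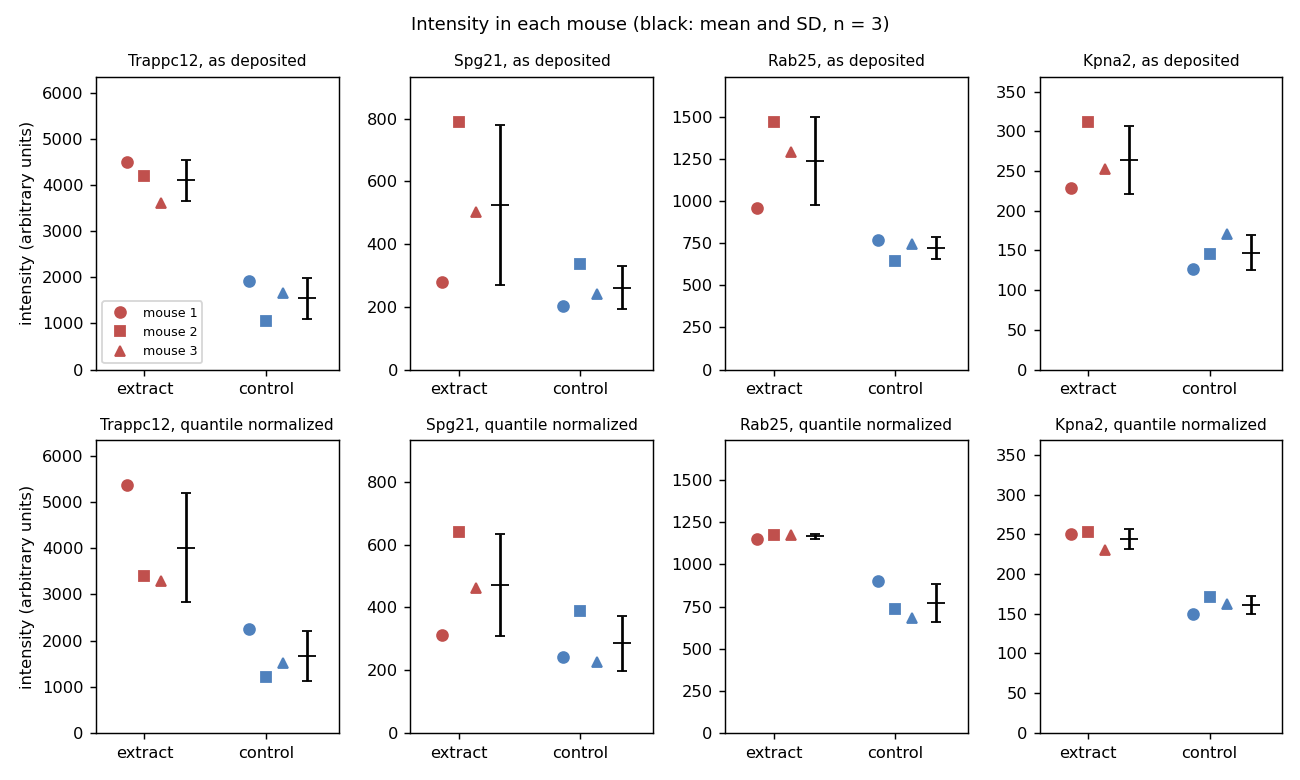
Intensity of each gene (arbitrary units, linear axes from 0) in each extract mouse (red, left) and control mouse (blue, right), as deposited in the upper row and quantile normalized in the lower row. Symbols mark mouse 1, 2 and 3 within a group, and black marks give the mean and SD (n = 3). Extract and control mice do not overlap for Trappc12, Rab25 and Kpna2, and overlap for Spg21.

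Trappc12, the tethering subunit, had deposited intensities of 4490, 4197 and 3609 in extract mice 1, 2 and 3, against 1913, 1050 and 1658 in control mice 1, 2 and 3. All 3 extract livers were therefore high, and the lowest of them stood at 1.89 times the highest control. After quantile normalization the intensities were 5369, 3395 and 3285 in the extract group and 2259, 1212 and 1507 in controls. Extract mouse 1, whose array was dim in its bright features, moved further up with scaling. Control mice 1 and 2, whose arrays were dim as well, also moved up. The SD among extract mice grew to 29.2% of their mean, against 10.9% without scaling. On the log2 scale Trappc12 was 11.93 ± 0.40 in extract livers and 10.65 ± 0.46 in controls (SD, n = 3 each), a difference of 1.29. It ranked first of the 122 listed genes, and counting itself 2 of 9434 bright features had a difference as large. With 1 array left out the difference lay between 1.06, without extract mouse 1, and 1.53, without control mouse 1.

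Rab25, the recycling endosome GTPase, had deposited intensities of 958, 1471 and 1291 in extract mice and 768, 646 and 745 in controls. Scaling drew the extract mice together, to 1151, 1175 and 1173, while controls spread to 900.3, 733 and 680.3. The SD among extract mice was 1.14% of the mean after scaling and 21.0% before it, whereas among controls it was 14.9% after and 9.01% before. On the log2 scale Rab25 was 10.19 ± 0.02 in extract livers and 9.58 ± 0.21 in controls (SD, n = 3 each). The difference was 0.61, and 1.26% of bright features reached it or more. It lay between 0.52 and 0.72 with 1 array left out. Extract and control mice stayed apart in each of those 6 settings. Groups already apart with all mice can hardly overlap with 1 fewer, so nothing is read from this.

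For Spg21, the maspardin gene, deposited intensities were 280, 790 and 502 in extract mice and 204, 337 and 240 in controls. Extract mouse 2 was high and extract mouse 1 fell within the range of the controls, below control mouse 2. Relative to the control mean the 3 extract mice stood at 1.08, 3.03 and 1.93. After quantile normalization the log2 values were 8.82 ± 0.52 in extract livers and 8.11 ± 0.42 in controls (SD, n = 3 each), a difference of 0.71. Its within-group SD of 0.47 exceeded that of 94.0% of bright features, where the median was 0.22. Without extract mouse 2 the difference was 0.46, and without extract mouse 1 it was 0.99 and the groups no longer overlapped. They did not overlap without control mouse 2 either, with a difference of 0.95.

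Kpna2, the nuclear import adaptor, had deposited intensities of 229, 312 and 252 in extract mice and 126, 145 and 171 in controls. All extract livers were higher, and the lowest exceeded the highest control 1.34-fold. After quantile normalization it was 7.93 ± 0.07 in extract livers and 7.33 ± 0.10 in controls (SD, n = 3 each), a log2 difference of 0.60. Within groups Kpna2 varied little after this normalization, with an SD of 0.09, and 3.08% of bright features had a lower one. Without scaling the log2 SD was 0.23 among extract mice and 0.22 among controls. With 1 array left out the difference was 0.55 to 0.65. Its feature is listed under the consensus identifier TC1615277, which is not a RefSeq transcript, so the symbol is the authors'. The features of Trappc12, Rab25 and Spg21 carry RefSeq accessions (NM_178811, NM_016899 and NM_138584) whose symbols match. Whether any feature measures its named gene alone was not tested.

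**Figure D2:**
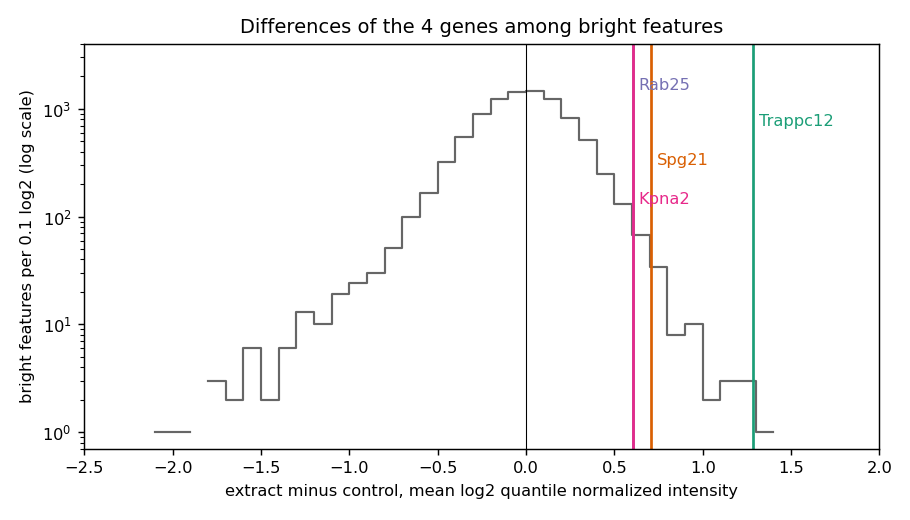
Number of bright features (log axis, bins of 0.1, empty bins left blank) by the extract minus control difference in mean log2 quantile normalized intensity (horizontal axis). Coloured lines mark Rab25 at 0.61, Kpna2 at 0.60, Spg21 at 0.71 and Trappc12 at 1.29, which stands at the upper end of the distribution.

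Over the whole array, limma called 0 of 45220 features (0%) from the quantile normalized values, at an adjusted p threshold of 0.05. An unadjusted limma p below 0.05 was found for 2313 of the 45220. With no difference anywhere, a share of about 0.05 would pass that threshold, so nothing is read from this number. With trend and robust moderation limma also called 0 at the adjusted threshold. At an unadjusted p below 0.01 and at least 1.5-fold, 0.531% of features were higher and 0.949% lower in extract livers (240 and 429 features). The balance turned without scaling, to 1209 higher and 67 lower, and with the 75th percentile of bright features, to 938 higher and 81 lower. The means of all 4 genes were at least 1.5-fold higher, which held for 1.57% of bright features. This count, too, comes from the contrast that chose the genes.

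Brightness of whole arrays entered each of these values. Without scaling the median bright feature was 0.18 higher in extract livers (log2), and the differences were 1.45 for Trappc12, 0.92 for Spg21, 0.84 for Kpna2 and 0.77 for Rab25. Dividing each array by its 75th percentile over all features set the median bright feature at -0.81. Trappc12 was then at 0.46, while Spg21, Kpna2 and Rab25 turned negative at -0.08, -0.15 and -0.23. That percentile was 99, 123 and 111 on the extract arrays, against 41, 41 and 102 on the control arrays. Without scaling, the genes stood above the median of bright features by 1.27, 0.74, 0.66 and 0.59 in the order Trappc12, Spg21, Kpna2 and Rab25. Dividing an array by 1 number cannot change these distances, so they are no check on the signs.

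**Figure D3:**
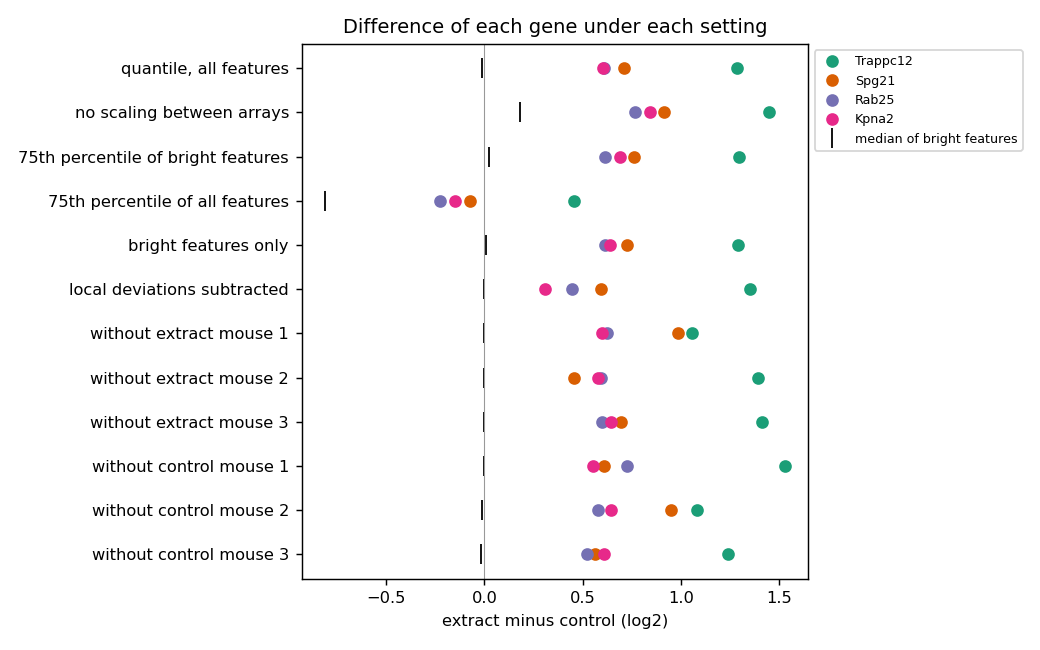
Extract minus control difference (log2, horizontal axis) of the 4 genes under each setting (rows), with a black tick at the median of bright features. Scaling by the 75th percentile of all features moves everything to the left, and Spg21, Rab25 and Kpna2 fall below 0 there, while each stays right of the tick in every row.

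Position on the array also moved with some of these differences. The features were placed in rows of 85 by their number, a layout read from the data. The deviation of an array in the surrounding 11 by 11 features was taken as the median difference of those features from their mean over arrays. Around Kpna2 it was 0.07, 0.15 and 0.24 (log2) on extract arrays 1, 2 and 3 and -0.24, -0.03 and -0.17 on control arrays 1, 2 and 3, so the neighbourhood was higher on every extract array. Of 27 neighbouring features with signal, 18 were themselves higher in every extract mouse than in every control, beside 9.54% of bright features. The local difference of 0.30 amounts to 49.1% of the difference of Kpna2.

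Around Rab25 the local deviation was -0.09, 0.03 and 0.34 on extract arrays and 0.11, -0.24 and -0.08 on control arrays, with overlapping groups and 4 of 32 neighbours separated upward. Around Spg21, 4 of 22 neighbours were separated and the local difference was 0.11. Trappc12 lay in a stretch where 0 of 27 neighbours were separated and the local difference was -0.07. Before any subtraction, 9.54% of all bright features were separated upward. With local deviations subtracted, the differences were 1.35 for Trappc12, 0.59 for Spg21, 0.44 for Rab25 and 0.31 for Kpna2. The same 3 genes had extract mice above all controls, beside 10.5% of bright features. The margin between the lowest extract and the highest control mouse was then 0.75 for Trappc12 and 0.10 each for Rab25 and Kpna2. Only Trappc12 and Spg21 were still at 1.5-fold or more.

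**Figure D4:**
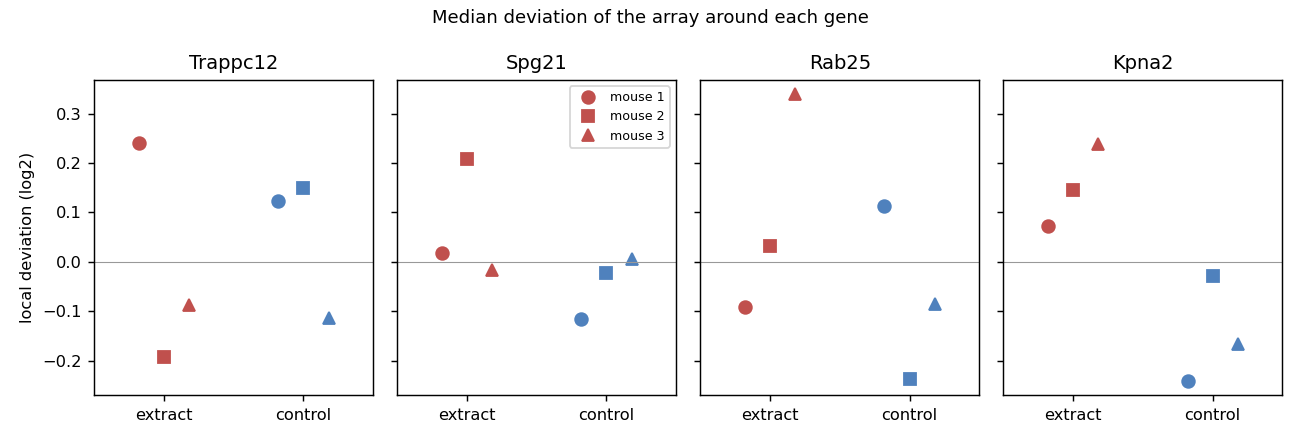
Local deviation (log2, vertical axis) of the array around each gene in extract mice (red, left) and control mice (blue, right), with symbols for mouse 1, 2 and 3. Around Kpna2 the 3 extract arrays lie above 0 and the 3 control arrays below it, whereas the groups overlap around Trappc12, Spg21 and Rab25.

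The 4 genes did not all follow each other mouse by mouse. Trappc12 was highest in extract mouse 1, the mouse with the lowest Spg21 of its group. Over the 6 arrays the correlation of log2 values was 0.92 between Trappc12 and Rab25 and 0.32 between Trappc12 and Spg21, and the other pairs fell between these. Each value includes the shared step between extract and control that chose the genes. As deviations from the group means it was 0.56 for Trappc12 and Rab25, -0.77 for Trappc12 and Spg21, and -0.64 for Rab25 and Kpna2. For the other pairs it was 0.39 (Spg21 and Kpna2), -0.05 (Spg21 and Rab25) and -0.41 (Trappc12 and Kpna2). Rab25 hardly varied among extract mice after scaling (SD 0.02), so its deviations come mainly from the control arrays. With 6 arrays these are descriptions only, and all genes share the same arrays.

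Of the other 121 listed genes, the 2 most like each gene over the 6 arrays stood under other functional headings, which hold most of the list. Papolg, a poly(A) polymerase gene, and Prss40, a serine protease gene, were most like Trappc12 (r = 0.98 for each). Thap11, a transcription factor gene, and Ppnr followed Rab25 (r = 0.98 and 0.97). For Spg21 they were the olfactory receptor gene Olfr846 and the cytochrome P450 gene Cyp20a1 (r = 0.94 and 0.93). For Kpna2 they were the sodium-glucose cotransporter gene Slc5a1 and the olfactory receptor gene Olfr808 (r = 0.98 and 0.96). At r above 0.9 there were 25 listed genes for Trappc12, 23 for Rab25, 22 for Kpna2 and 2 for Spg21, in a list that was itself drawn from this contrast.

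Few further genes on the lists drawn up for these pathways are named in the deposited table. Of 58 other vesicle trafficking genes on a list for the pathway, Trappc9, a subunit of the related TRAPPII complex, is named. Its intensities were 453, 566 and 370 in extract mice and 237, 217 and 274 in controls, a log2 difference of 0.72 after quantile normalization and 0.54 with local deviations subtracted. Of 34 nuclear transport genes, Ran and Ranbp3l are named. Ran, the GTPase that unloads importin cargo in the nucleus, had 607, 820 and 574 in extract mice and 395, 325 and 428 in controls, with differences of 0.62 and 0.35. Ranbp3l, a relative of the Ran-binding export cofactor gene Ranbp3, had 1487, 1600 and 1441 in extract mice and 882, 798 and 1149 in controls, with differences of 0.55 and 0.26. The extract mice of these 3 genes were all above the controls after quantile normalization, as for 68.0% of the listed genes, so nothing is read from that. None of them was called by limma, which called 0 of 45220 features. Outside the pathway lists, the authors give Mtmr9 and Mtmr11 a role in membrane trafficking. Their log2 differences were 0.69 and 0.46 after quantile normalization, and 0.51 and 0.50 with local deviations subtracted. For Mtmr11 the groups overlapped.

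Under the authors' heading of intracellular transport stand Trappc12, Spg21, Kpna2 and 4 others, and Rab25 stands with 7 others under cell differentiation. All 4 others under transport had higher means with the extract, with a median difference of 0.71 beside -0.01 for bright features. They were Xkr5 of the XK-related membrane proteins (0.92), the organic anion transporter gene Slco4c1 (0.71), the anion transporter gene Slc26a11 (0.70) and the SNARE gene Stx11 (0.51), whose groups overlapped. With local deviations subtracted they were at 1.00, 0.80, 0.79 and 0.54. All 7 others under cell differentiation were higher too, with a median of 0.61, from Mef2d (1.00), Zfp503 (0.63) and Ran to Mbd5 (0.59), Ranbp3l and Tfcp2l1 (0.42). With local deviations subtracted that median was 0.35, with Mef2d at 0.74, Zfp503 at 0.43, Mbd5 at 0.33 and Tfcp2l1 at 0.15. The table lists higher genes for the most part, as 109 of its other 118 had higher means (median 0.60), so nothing particular to transport is read from these counts.

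**Figure D5:**
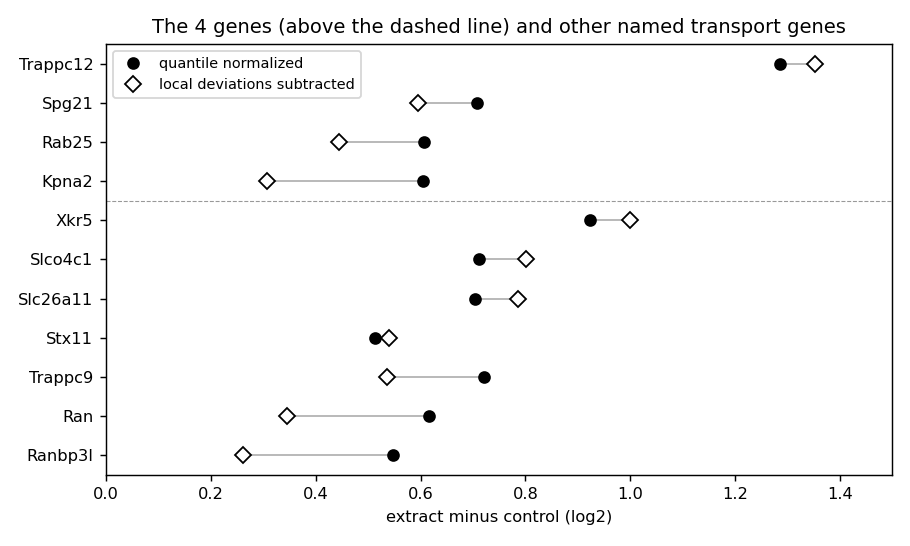
Extract minus control difference (log2, horizontal axis) of the 4 genes, above the dashed line, and of 7 other listed transport genes, quantile normalized (filled circles) and with local deviations subtracted (open diamonds). Trappc12, Xkr5, Slco4c1, Slc26a11 and Stx11 lie further right after the subtraction, and the others further left, Kpna2, Ran and Ranbp3l by the widest steps.

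Cdk1 was the single named gene of 12 proliferation markers, which bear on Kpna2 as a gene of proliferating cells. Its intensities were 246, 399 and 246 in extract mice and 134, 158 and 162 in controls. The log2 difference was 0.70 after quantile normalization and 0.39 with local deviations subtracted. Outside that list of markers, the authors place Gins3 and Gins4 under DNA replication. Their differences were 0.57 and 0.56, and 0.84 and 0.54 with local deviations subtracted. For Gins3 the groups overlapped. The part of dividing cells in the values of Kpna2 was not tested.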

How the data were processed

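Liver RNA of 3 extract and 3 control mice was measured on 1-colour Agilent arrays. The authors deposited 1 intensity for each feature on each array, as whole numbers, some of them negative. Agilent Feature Extraction is named per the submitters' processing notes, and the sources used here give neither its version nor the background correction or scaling. Ratios in the authors' deposited table were not used.

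Intensities were quantile normalized over 6 arrays, values under 1 were set to 1, and log2 was taken. Differences are extract minus control. The whole array was fitted with limma 3.58.1 (lmFit, eBayes) under R 4.3.3. Its two-sided p-values were adjusted by Benjamini and Hochberg's method over all features, at a threshold of 0.05. Local deviations used features above 100 on at least 4 arrays, at least 10 per neighbourhood. Scripts were tested on simulated data.

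The deposited table names 122 features, and 45098 stayed unnamed. The text names the 4 genes, for each the 2 listed genes with the highest correlation, listed genes of the pathway lists, and up to 3 highest and 3 lowest of each heading. Listed marker genes of cell types are named as well, as are some genes of the deposited table that the marker and pathway lists lack. Genes and lists were chosen with earlier results of these data known.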

Additional observations from a re-analysis of the deposited data

How the results depend on the processing

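Differences of the 4 genes kept their sign under every setting tried except scaling by the 75th percentile of all features, which put Spg21 at -0.076, Rab25 at -0.23, Kpna2 at -0.15 and Trappc12 at 0.46. That setting moved all bright features by the same amount from their unscaled differences, and put the median bright feature at -0.81. Why that percentile differed between arrays was not tested. Without scaling Rab25 was at 0.77 and Kpna2 at 0.84, and with local deviations subtracted at 0.44 and 0.31. With 1 array left out, Trappc12 ranged from 1.06 to 1.53, Spg21 from 0.46 to 0.99, Rab25 from 0.52 to 0.72 and Kpna2 from 0.55 to 0.65. A floor of 16 changed none of the 4 differences. The count of 0 features at a limma adjusted p below 0.05 became 31 without scaling and 1 on bright features (Mrps11, a mitochondrial ribosomal protein gene), and leaving out single arrays gave 0 to 190 (extract mouse 1 left out, 190; extract mouse 3 left out, 41). At unadjusted p below 0.01 and 1.5-fold there were 669 features, 240 higher and 429 lower. Their number was 1276 without scaling (1209 and 67), 1019 when scaled by the 75th percentile of bright features (938 and 81), 158 on bright features (101 and 57), 169 with a floor of 16, 359 with trend and robust moderation and 783 to 1154 when single arrays were dropped, highest without control mouse 3. Features with every extract mouse above every control numbered 1956, and 5442 without scaling, 967 and 5501 with 75th percentiles of all and of bright features, 980 on bright features, 1200 with a floor of 16 and 3198 to 3697 with single arrays dropped, where fewer mice have to separate. Other causes of these changes were not tested. The replicate block left the 4 differences as they were and gave 0 and 454 features at the 2 thresholds. Same-numbered mice correlated at 0.04 to 0.25 in their deviations and other pairs at -0.19 to 0.03, and the labels name no shared litter or batch, so the numbers were not used as pairs.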
